A study of Mus musculus with 12 samples.

Results

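The stress keratins of hyperproliferative epidermis were described through 4 genes, Krt6a, Krt6b, Krt16 and Krt17, which were taken by symbol from the 23282 entries counted in every library. All 4 were measured in all 12 mice and all 4 passed the filter on low counts that left 14163 genes for testing. Skin RNA came from wild-type male C57BL/6J mice obtained at 5 weeks of age, with 1 library per mouse. In both groups atopic dermatitis (AD)-like lesions were raised with the hapten dinitrochlorobenzene (DNCB) as a 0.5% solution, applied 3 times a week for 6 weeks. The AD group (n = 5) ate standard chow. The HF + AD group (n = 7, AD+OB in the labels) ate a high-fat diet with 60% of its energy from fat for 10 weeks in all and developed the lesions on top of diet-induced obesity. Since DNCB was given to both groups and skin without DNCB was not analysed here, the values compare diseased skin of obese and lean mice and do not show how far the lesions themselves raised these keratins.

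Keratins form the intermediate filaments of epithelial cells as pairs of a type II and a type I chain. Krt6a and Krt6b are type II chains, and Krt16 and Krt17 are their usual type I partners. In resting skin these genes are active in the hair follicle, mainly in the companion layer and outer root sheath, and are nearly silent in the epidermis between follicles. After wounding, in psoriasis and in other inflamed or thickened epidermis, suprabasal keratinocytes switch them on, and for that reason they are called stress or wound keratins.

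Krt6a and Krt6b are neighbours on chromosome 15 (GRCm38, GENCODE M21 annotation), at chr15:101689910-101694307 and chr15:101676023-101680287, each with 9 exons on the minus strand. Krt16 and Krt17 are neighbours on chromosome 11, at chr11:100246091-100248902 and chr11:100256217-100261029, each with 8 exons on the minus strand. Krt6a and Krt6b are close copies, and their coding sequences were 97.6% identical, with a longest shared run of 280 bases. The last 300 bases of their transcripts, where 3′ sequencing places its reads, were 63.3% identical with a longest shared run of 22 bases. The transcripts run on past the stop codon for 557 bases in Krt6a and 506 in Krt6b, so those last 300 bases hold no coding sequence. The last 90 coding bases are shown because only 3′ reads that reach that far from the transcript end would fall there. Capitals mark bases with no identical counterpart in the alignment of the pair (stop codon at the end, 5′ to 3′ on the coding strand, GENCODE M21).

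Krt6a (chr15:101690467-101690556): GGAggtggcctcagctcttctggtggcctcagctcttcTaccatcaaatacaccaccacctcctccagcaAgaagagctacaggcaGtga
Krt6b (chr15:101676529-101676618): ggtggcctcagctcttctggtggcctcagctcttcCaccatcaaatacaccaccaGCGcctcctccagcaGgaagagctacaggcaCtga

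Each of these stretches carried 6 capitals. How reads with several matches were counted is not given in the sources used here, and the summed count of the pair is therefore reported beside the separate ones. Krt17 has a close relative in Krt42, a type I keratin gene beside it, with 77.0% identity over the coding sequence and 60.3% over the last 300 bases.

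Libraries held between 9746937 and 11688979 counts in the AD group and between 10726845 and 13462434 in the HF + AD group. The groups did not overlap in the number of entries with at least 1 read, from 13100 to 15063 in AD and from 15522 to 16677 in HF + AD. Levels are given as CPM (counts of a gene per 1000000 counts of its library), with library totals scaled by the trimmed mean of M-values (TMM), and a count of 0 allows up to 0.223 to 0.308 CPM (3 counts per library). Each read stands for the 3′ end of a transcript, so CPM is not divided by gene length. AD mouse 1 stood apart in the genes described here, and the results on the members are therefore given with and without it.

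Krt6a was among the most abundant mRNAs of these skins, and it was the entry with the most reads in 5 of 12 libraries. The 4 genes together took from 0.661% to 1.87% of all counts in AD mice and from 0.713% to 1.75% in HF + AD mice. Most of those reads were Krt6a. Krt6b and Krt16 were far lower, with AD medians of 483 and 203 CPM beside 7169.9 CPM for Krt6a. No member differed between the groups at an adjusted p under 0.05 (edgeR quasi-likelihood test with Benjamini-Hochberg adjustment over 14163 genes). Across all genes 1303 passed, or 9.20%, with 627 higher (4.43% of genes, 48.1% of calls) and 676 lower (4.77% of genes) in HF + AD, and a count of 0 of 4 is to be read against that share. With library totals alone in place of TMM the split was 744 higher (59.1%) and 515 lower, and none of the members was called. At an unadjusted p under 0.05 the count was also 0 of 4 with edgeR, against 25.1% of all genes. DESeq2 gave 0 of 4 at the adjusted threshold and 1 of 4 (Krt17) unadjusted, and limma-trend gave 0 of 4 on both.

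Krt6a, the main type II chain of the set, was at 14566, 6093, 5163, 7169.9 and 7319 CPM in AD mice 1 to 5. In the HF + AD group the lowest mouse had 5348 CPM, the median was 10137 CPM and the highest was 13369.6 CPM. HF + AD mice 1, 3, 5 and 7 were above all of AD mice 2 to 5, and HF + AD mice 2, 4 and 6 lay inside the range of those mice. The highest of the 12 values nevertheless belonged to AD mouse 1. On the log2(CPM + 1) scale the means were 12.88 ± 0.57 (SD, n = 5) in AD and 13.14 ± 0.57 (SD, n = 7) in HF + AD, and the difference of 0.26 did not exceed that spread (p = 0.446, two-sided exact permutation over 792 splits). The fitted log2 fold change was 0.25 (SE 0.27, edgeR adjusted p = 0.619).

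Krt6b, the second type II copy, was far lower than Krt6a in reads and more uneven. AD mouse 1 had 2683 CPM, while AD mice 2 to 5 had 547, 483, 369 and 354 CPM. The HF + AD mice ranged from 370.4 CPM through a median of 870.4 CPM to 1364 CPM. Among them 5 of 7 lay above AD mice 2 to 5 and 0 of 7 above AD mouse 1. The mean log2(CPM + 1) was 9.28 ± 1.21 (SD, n = 5) in AD and 9.55 ± 0.71 (SD, n = 7) in HF + AD, a difference of 0.26 (exact permutation p = 0.639). The fitted change, which weighs reads rather than their logarithms, had the opposite sign at -0.11 (SE 0.46, edgeR adjusted p = 0.918), so no direction can be given for Krt6b over all 12 mice. Counted as 1 gene with Krt6a, the pair changed by 0.22 on the log2 scale (SE 0.29, edgeR adjusted p = 0.687).

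Krt16, the type I partner most closely tied to hyperproliferation, had the lowest read level of the 4. It stood at 956 CPM in AD mouse 1 and at 203, 151, 172 and 212 CPM in AD mice 2 to 5. In HF + AD mice the lowest value was 169 CPM, the median 298 CPM and the highest 560.4 CPM. All HF + AD mice other than mouse 4 exceeded AD mice 2 to 5, and all 7 lay below AD mouse 1. Means of log2(CPM + 1) were 8.001 ± 1.08 (SD, n = 5) and 8.38 ± 0.61 (SD, n = 7), with a difference of 0.38 (exact permutation p = 0.453). The fitted log2 fold change was 0.07 (SE 0.41, edgeR adjusted p = 0.941).

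Krt17, a type I chain that is also made throughout the outer root sheath, was the most even member and the one nearest to a group difference. AD mice 1 to 5 had 1608, 985, 912, 1239 and 1525 CPM. HF + AD mice ranged from 1139 CPM through a median of 1739 CPM to 2778 CPM, and 4 of 7, again mice 1, 3, 5 and 7, lay above every AD mouse. The mean log2(CPM + 1) was 10.26 ± 0.37 (SD, n = 5) in AD and 10.66 ± 0.44 (SD, n = 7) in HF + AD. The difference of 0.40 did not pass the exact permutation test (p = 0.122), and the fitted log2 fold change of 0.43 (SE 0.21) had an unadjusted edgeR p of 0.0589 and an adjusted p of 0.219.

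**Figure D1:**
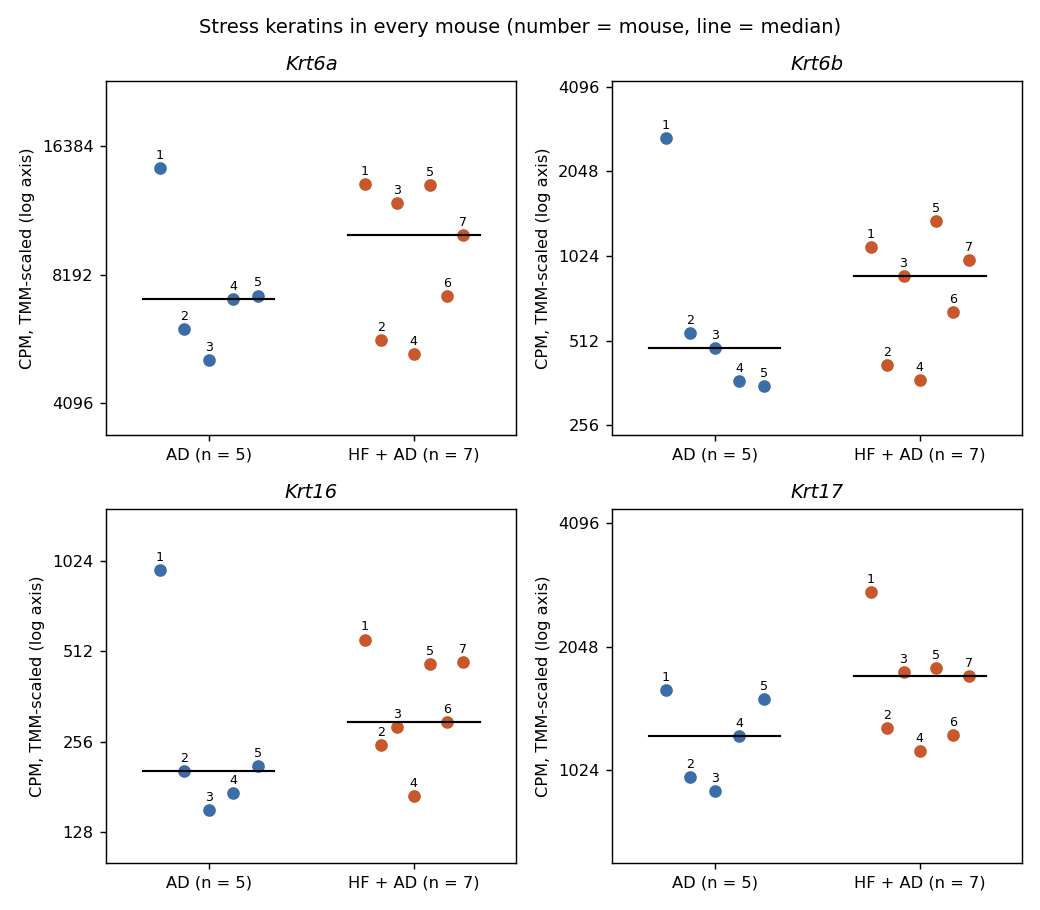
CPM with TMM-scaled totals (log axis) of Krt6a, Krt6b, Krt16 and Krt17 in each AD mouse (n = 5, blue) and HF + AD mouse (n = 7, orange), with the mouse number above each point and a line at the group median. AD mouse 1 is the highest of all 12 for Krt6a, Krt6b and Krt16 but not for Krt17, and HF + AD mouse 4 is the lowest of its group in every panel.

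AD mouse 1 set much of the spread. Its level was 6.21-fold the geometric mean of the other AD mice for Krt6b, 5.20-fold for Krt16, 2.28-fold for Krt6a and 1.41-fold for Krt17. Among the 2651 tested genes with a mean count of at least 1000, this mouse exceeded every other AD mouse by more than 2-fold in 46 (1.74%). The SD of Krt6b over the AD mice was larger than that of 99.4% of those 2651 genes, and that of Krt16 larger than that of 99.0%. The spread was wide without this mouse too, since within the HF + AD group the SD of Krt6b was above that of 98.2% of these genes, of Krt16 97.1%, of Krt6a 95.9% and of Krt17 90.7%. The highest HF + AD mouse was above the lowest by 3.68-fold for Krt6b, 3.33-fold for Krt16, 2.50-fold for Krt6a and 2.44-fold for Krt17.

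Without AD mouse 1 the fitted changes of all 4 members were above 0, and 1 of 4 passed the adjusted threshold, against 5.38% of 14410 genes called higher in that fit. The mouse was singled out for its high values in these same genes, so its removal favours higher fitted changes and a smaller AD spread. The shares over all genes carry no such choice. Krt16 rose by 0.95 on the log2 scale (SE 0.26, edgeR adjusted p = 0.0319), or 1.93-fold. Krt6b was at 0.92 (SE 0.30, adjusted p = 0.0597), Krt6a at 0.58 (SE 0.24, adjusted p = 0.134) and Krt17 at 0.53 (SE 0.22, adjusted p = 0.130). Unadjusted, 4 of 4 had a p under 0.05 there, where 27.1% of all genes did. Leaving out any other mouse gave no call among the members, and fitted values between 0.13 and 0.36 for Krt6a, between -0.29 and 0.02 for Krt6b, between -0.11 and 0.19 for Krt16 and between 0.26 and 0.52 for Krt17. With every mouse kept but weighted by how well its library matched the fit (limma voom with sample quality weights, an alternative chosen after seeing the data), AD mouse 1 received the lowest weight, 0.271. AD mice 2 to 5 had weights of 0.349, 0.596, 1.33 and 0.936, and HF + AD mice had 1.09 to 1.87, so AD mouse 1 was not the only mouse weighted down. The changes were then 0.29, 0.62, 0.64 and 0.33 for Krt6a, Krt6b, Krt16 and Krt17, with adjusted p between 0.239 and 0.531.

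**Figure D2:**
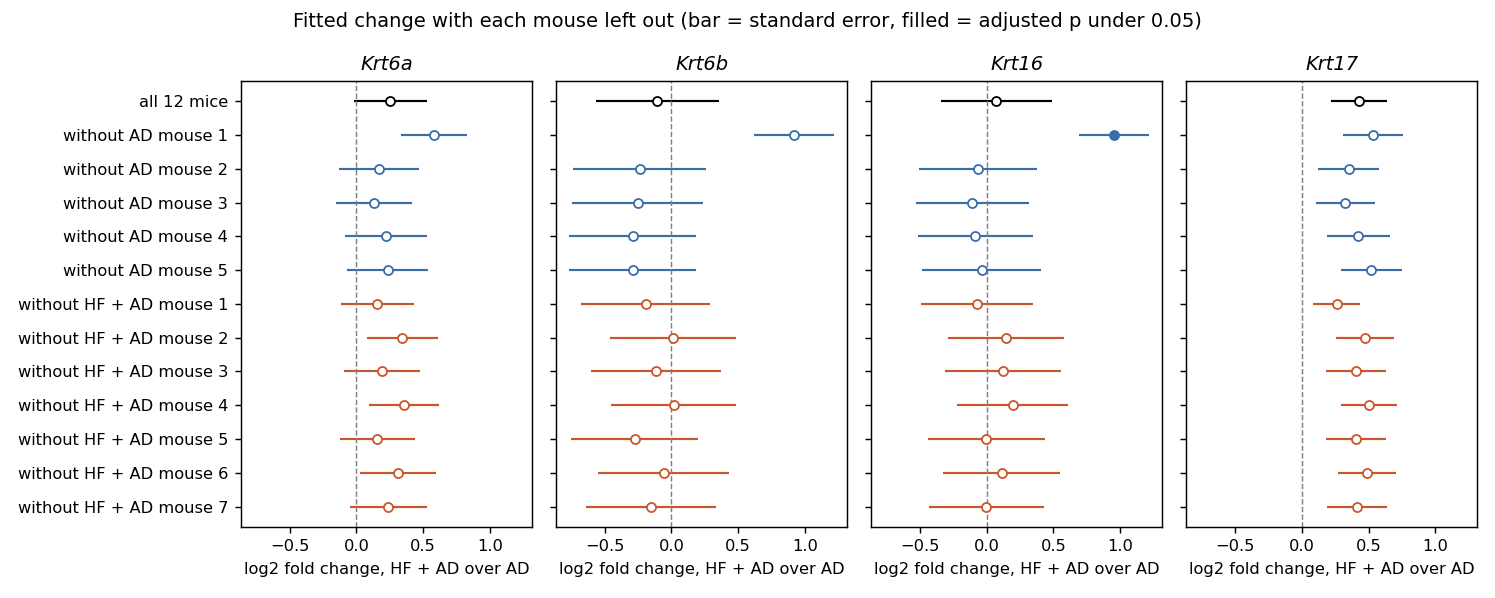
Fitted log2 fold change of HF + AD over AD (x axis) with its standard error for each member, from all 12 mice (black) and with each AD mouse (blue) or HF + AD mouse (orange) left out (y axis). Filled points have an edgeR adjusted p under 0.05, which is reached by Krt16 without AD mouse 1 alone, and leaving out that mouse moves Krt6b from -0.11 to 0.92 and Krt16 from 0.07 to 0.95.

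Other genes of wounded or inflamed epidermis moved with the members in this mouse. Of the 40 tested genes of that list, which holds alarmins, small proline-rich proteins, late cornified envelope genes and protease inhibitors, AD mouse 1 was the highest AD mouse in 36 (90%), against 24.8% of all genes, and the highest of all 12 mice in 28 (70%), against 15.8%. Their summed level was 28543 CPM in AD mouse 1, 6946 to 8372 CPM in AD mice 2 to 5 and 5431 to 10903 CPM in HF + AD mice. S100a8, an alarmin of inflamed keratinocytes and neutrophils, was at 2405 CPM in AD mouse 1. It was at 95.4 to 204 CPM in AD mice 2 to 5 and at 64.0 to 299.7 CPM in HF + AD mice. Summed fibroblast markers were also high there, at 10614 CPM against 3518 to 5639 CPM in AD mice 2 to 5, as were summed leukocyte markers, at 790.3 CPM against 252 to 447 CPM. HF + AD mice 3 and 7, with 9061 and 10896 CPM of fibroblast and 767 and 855 CPM of leukocyte markers, shared these high sums. The part of these cell types in the members' levels was not tested. In bulk skin, fewer cells of a type and less RNA per cell cannot be told apart.

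Over the whole list of wounded or inflamed epidermis, 46 genes were listed and 40 tested, of which 1 was called higher and 2 lower in HF + AD. These calls were 7.5% of the tested genes, beside 9.20% of all genes. In all 1 was called when AD mouse 2 or 3, or either of HF + AD mice 1 and 2 was left out. The median log2 fold change was -0.50, beside 0.02 over all genes tested. Slpi, a secreted inhibitor of leukocyte proteases, rose by 1.58 (edgeR adjusted p = 0.0284). Rptn, which encodes the cornified envelope protein repetin, fell by 1.84 (adjusted p = 0.0167), and Tslp, a keratinocyte cytokine of type 2 inflammation, fell by 1.53 (adjusted p = 0.0449). With AD mouse 1 left out the list had 5 genes higher and 1 lower, where 5.38% of all genes were called higher. Its median was then 0.34, beside 0.04 over all genes. Those higher were Lce3c at 2.23, Lce3d at 2.19, Slpi at 1.90, Sprr2h at 1.83 and the connexin gene Gjb6 at 0.73, and Rptn was the lower gene at -1.14. As with Krt6b, the sign of the list's median thus turned with this mouse.

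The basal keratins were higher in HF + AD mice. Krt5, the type II chain of basal keratinocytes, ranged from 2234 to 3810.5 CPM in AD mice and from 4048 to 6649 CPM in HF + AD mice with no overlap, and it rose by 0.81 on the log2 scale (SE 0.15, edgeR adjusted p = 0.00679). Groups did not overlap in 5.46% of all genes, with HF + AD higher in 2.90%. Krt14, its type I partner, ranged from 545 to 1278 CPM in AD mice and from 843 to 3024 CPM in HF + AD mice. It rose by 1.05 (SE 0.27, adjusted p = 0.0248), and 5 of 7 HF + AD values exceeded the whole AD range, though without AD mouse 2, 3 or 4 its adjusted p was between 0.0555 and 0.0625. Krt15, a keratin of basal cells and of the follicle bulge, rose by 1.21 (adjusted p = 0.0151). The suprabasal keratins of ordinary differentiation were low and uneven. Krt1 was at 20.5 to 138 CPM in AD and 7.25 to 135 CPM in HF + AD mice, with a fitted change of 0.12 (SE 0.58, adjusted p = 0.926). Krt10 was at 55.5 to 599.8 CPM in AD, its highest value again in AD mouse 1, and at 37.6 to 286 CPM in HF + AD mice, with a fitted change of -0.42 (SE 0.54, adjusted p = 0.690).

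A ratio of 2 genes within a library does not depend on how libraries are scaled, so each member was also set against Krt14. AD mice had from 9.35 to 12.3 reads of Krt6a per read of Krt14, and HF + AD mice from 3.81 to 8.68, so that all 7 HF + AD mice lay below every AD mouse. The difference was -0.76 on the log2 scale (two-sided exact permutation p = 0.00505). For Krt17 the ratio had a median of 1.67 in AD and 1.19 in HF + AD, with 6 of 7 HF + AD mice below all AD mice and a difference of -0.62 (exact permutation p = 0.00253). Krt16 differed by -0.65 (exact permutation p = 0.0278), with medians of 0.297 and 0.202, and without AD mouse 1 the difference was -0.37 (exact permutation p = 0.0939). Krt6b differed by -0.76 (exact permutation p = 0.0833).

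Most genes, and not the members alone, were lower against Krt14. Of 14162 genes set against Krt14 in the same way, 46.6% were lower in HF + AD at an exact permutation p under 0.05, 9.02% had groups that did not overlap in that direction, and the median difference was -0.87, further from 0 than that of any of the 4 members. Against Krt5 in place of Krt14 none of the 4 ratios passed. Those differences were -0.55 for Krt6a (exact permutation p = 0.109), -0.55 for Krt6b (p = 0.393), -0.44 for Krt16 (p = 0.433) and -0.41 for Krt17 (p = 0.0606), where 48.4% of all genes were lower at that threshold and the median was -0.66.

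**Figure D3:**
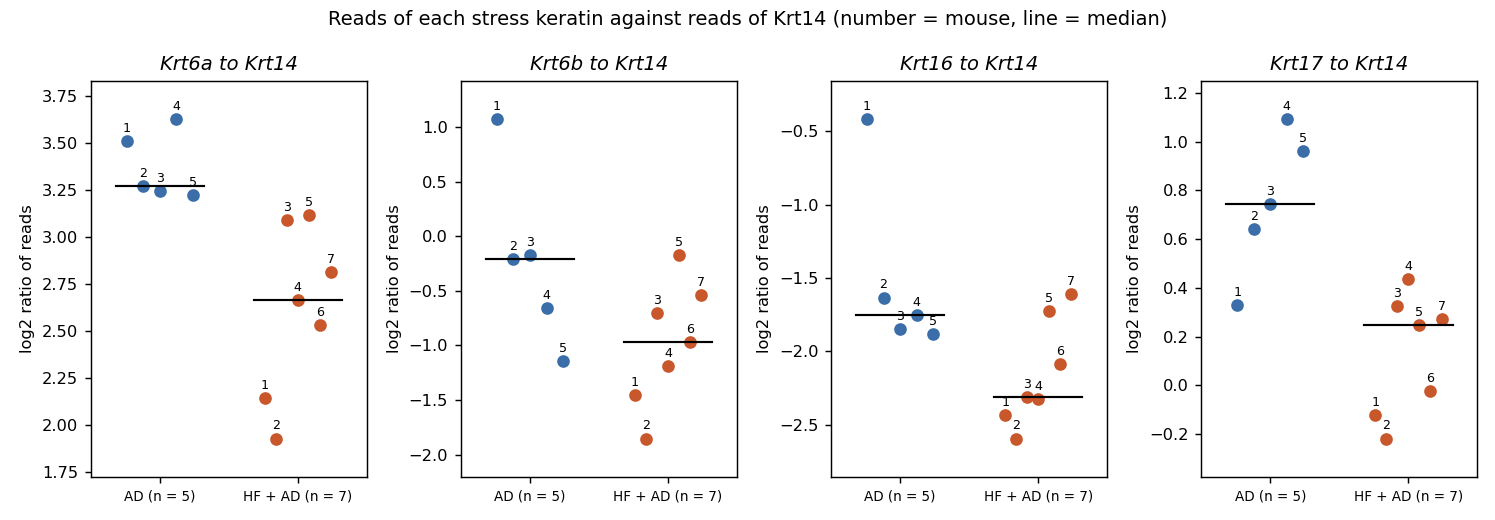
Log2 ratio of the reads of each member to the reads of Krt14 (y axis, a separate scale in each panel) in each AD mouse (n = 5, blue) and HF + AD mouse (n = 7, orange), with mouse numbers and a line at the group median. All 7 HF + AD mice lie below every AD mouse for Krt6a, and the Krt16 panel shows AD mouse 1 far above the rest at -0.42.

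In the full fit each member changed by less than the median of the other keratin genes. Of 48 other keratin genes listed, 37 were tested, 11 were called higher and none lower in HF + AD (29.7%, beside 9.20% of all genes called). The median log2 fold change was 0.52, and 20 had an unadjusted edgeR p under 0.05, all of them higher, against 25.1% of all genes in either direction. The smallest adjusted p belonged to Krt34 at 1.33, Krt39 at 1.49, Krt31 at 1.14, Krt27 at 0.95 and Krt5 at 0.81. Krt34, Krt39 and Krt31 are hair shaft keratins and Krt27 belongs to the inner root sheath. Over fits that each left out 1 mouse, from 8 to 14 of these keratins were called. The fitted changes of the members, from -0.11 for Krt6b to 0.43 for Krt17, all lay below the family's median, and without AD mouse 1, where that median was 0.71, Krt6b and Krt16 lay above it.

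**Figure D4:**
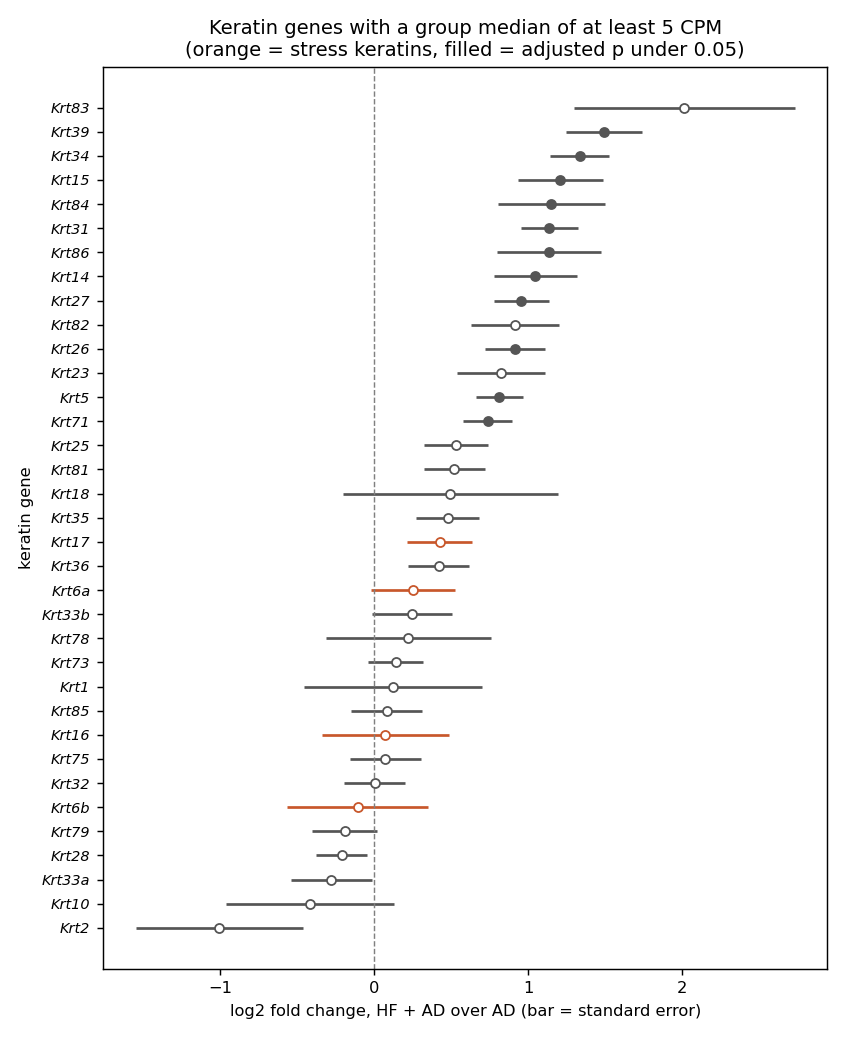
Fitted log2 fold change of HF + AD over AD (x axis) with its standard error for the 35 tested keratin genes with a group median of at least 5 CPM (y axis, sorted), from all 12 mice. The 4 stress keratins (orange) lie between -0.11 and 0.43 and none is filled, whereas the filled genes, with an edgeR adjusted p under 0.05, are other keratins and are all higher in HF + AD.

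Since the members are made in the follicle as well as in stressed epidermis, markers of the follicle are given beside them. The list of the outer root sheath, companion layer and upper follicle held 18 genes. At an unadjusted edgeR p under 0.05, 3 were higher and 1 lower, where 25.1% of all genes passed. The median log2 fold change of the 18 was -0.02. At the adjusted threshold 2 were called higher and none lower (11.1%, beside 9.20% of all genes called). These were the transcription factor genes Sox9 at 1.18 and Barx2 at 0.96, and Krt75, the type II keratin that marks the companion layer, was at 121 to 401 CPM in AD and 177 to 298 CPM in HF + AD mice. Among 18 hair shaft genes 7 were called higher (38.9%), with a median of 0.65. Summed CPM was 3623 to 6882 in AD and 5507 to 8968 in HF + AD. Among 11 tested inner root sheath genes 5 were called higher (45.5%), with a median of 0.74. Summed CPM was 7750.0 to 12434 in AD and 9273 to 13253 in HF + AD. Neither list had a gene lower by edgeR, adjusted or unadjusted. Of the 8 tested basal and suprabasal keratins 3 were called (37.5%), all higher. The part of follicle content in the members' levels was not tested.

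Signals known to induce the stress keratins were counted in the same fit. Of 37 ligand and receptor genes of the epidermal growth factor, interleukin (IL)-17, IL-22, IL-20, IL-6, interferon-γ, IL-1 and tumour necrosis factor systems, 27 were tested, none was higher and 2 were lower (7.41%, beside 9.20% of all genes called) in HF + AD, with a median of -0.01. Il17ra, the shared receptor chain for IL-17 cytokines, fell by 0.67 (edgeR adjusted p = 0.0103), and Erbb2, a partner of the epidermal growth factor receptor, fell by 0.66 (adjusted p = 0.0225). At an unadjusted p under 0.05 there were 2 higher and 3 lower, where 25.1% of all genes passed. Il17a, Il17f, Il17c and Il22, ligands that drive these keratins in psoriasis, had 0 reads in all 12 libraries, so levels under the limit given above were not detectable at this depth. Leaving out AD mouse 1, the list again had none higher and 2 lower, with a median of 0.26, and 1 gene was called when AD mouse 2 or HF + AD mouse 2 was left out.

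Among 24 transcription factor genes that act on stress keratin promoters, none was higher and 2 were lower by edgeR (8.33%, beside 9.20% of all genes called). The median was -0.0026, and 3 were higher and 2 lower at an unadjusted p under 0.05, where 25.1% of all genes passed. Nfkbiz, a nuclear co-activator downstream of IL-17 signalling, fell by 0.76 (edgeR adjusted p = 0.0113), and Junb, a subunit of the AP-1 factor, fell by 0.53 (adjusted p = 0.0269). When AD mouse 1 was left out, the count was 1 higher, the NF-κB subunit gene Rela, and 2 lower, and 1 gene in all was called when AD mouse 2, 4 or 5, or either of HF + AD mice 1 and 4 was left out. Of 25 cell cycle genes, measured because these keratins mark hyperproliferation, 2 were higher (Cdc20 at 1.33 and Mcm7 at 0.64) and 5 lower. In all 28% of the list was called, beside 9.20% of all genes. Those lower were Rrm2 at -0.69, Top2a at -0.65, Ccnb1 at -0.54, Mcm3 at -0.51 and Birc5 at -0.50, and the median of the list was -0.09. Leaving out AD mouse 1 gave none higher and 5 lower, and 1 gene in all was called when AD mouse 4, or any of HF + AD mice 1, 2, 4 and 7 was left out, with 2 calls for AD mouse 2 or 3, and 4 calls for HF + AD mouse 3.

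Ratios between the members within a library, given as a description, overlapped between the groups. Per 100 reads of Krt6a there were 8.97 reads of Krt6b in the median AD mouse (range 4.84 to 18.4) and 8.27 in the median HF + AD mouse (range 6.93 to 10.2). For Krt16 the medians per 100 reads of Krt6a were 2.93 in AD (range 2.41 to 6.56) and 4.08 in HF + AD (range 2.37 to 4.64). For Krt17 they were 17.3 (range 11.0 to 20.8) and 17.2 (range 13.7 to 22.6). The highest Krt6b and Krt16 ratios and the lowest Krt17 ratio of the AD group were all from AD mouse 1, which had 168 reads of Krt17 per 100 of Krt16 against a group median of 603.

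Across the 12 mice the levels of the members ran together, as a description from shared libraries that include 1 extreme mouse. Pearson's r of log2(CPM + 1) was 0.94 for Krt6b with Krt16, 0.88 for Krt6a with Krt16 and with Krt6b, 0.85 for Krt6a with Krt17, 0.72 for Krt16 with Krt17 and 0.59 for Krt6b with Krt17. Without AD mouse 1 these were 0.89, 0.86, 0.87, 0.90, 0.86 and 0.70 in the same order. Within the 7 HF + AD mice r was 0.97 for Krt6a with Krt6b and between 0.80 and 0.90 for the other pairs. Running together was not limited to the members. Over the 12 mice the r with Krt14 was 0.86 for Krt17, 0.74 for Krt16, 0.70 for Krt6a and 0.59 for Krt6b. Without AD mouse 1 these were 0.86, 0.89, 0.74 and 0.72 in the same order. For Krt17 the r with Krt14 was above its r with any other member over the 12 mice. Without AD mouse 1 its r with Krt6a, 0.90, was above that with Krt14. With Krt5 the r over the 12 mice was 0.70 for Krt17, 0.40 for Krt6a, 0.34 for Krt16 and 0.17 for Krt6b. Without AD mouse 1 the r with Krt5 was 0.78, 0.64, 0.75 and 0.54 in the same order.

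The genes most like each member over the 12 mice were found among 13200 genes with a mean count of at least 20. For Krt6b they were Sprr1b (r = 0.94), Krt16 (0.94), Sprr2e (0.91), Lce3a (0.91) and Rgs10 (0.90), of which the Sprr and Lce genes encode proteins of the cornified envelope. For Krt16 they were Krt6b (0.94), Sprr1b (0.93), Teddm3 (0.92), Vti1b (0.91) and Krtdap (0.91), the last a keratinocyte differentiation gene. Krt6a and Krt17 had other neighbours. For Krt6a they were Ube2h (0.92), Vasn (0.90), Cstb (0.89), Prss22 (0.88) and Rhoc (0.88), and for Krt17 they were Rplp1 (0.94), Krt42 (0.94), Actg1 (0.92), Tagln2 (0.91) and Cstb (0.90). Cstb, a cysteine protease inhibitor gene, stood on the lists of both Krt6a and Krt17. Krt42 ranged from 0.104 to 2.09 CPM in AD and from 0.783 to 21.8 CPM in HF + AD mice, far below Krt17, and shared reads between the relatives were not tested.

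**Figure D5:**
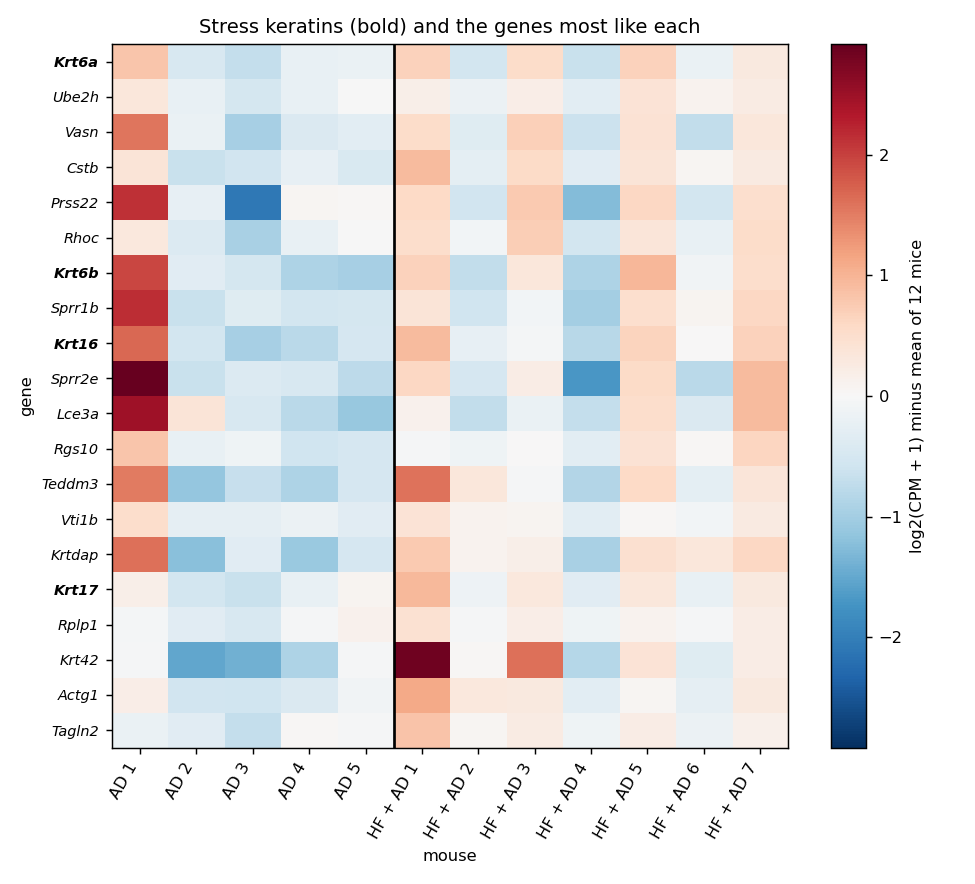
Deviation of log2(CPM + 1) from the mean of the 12 mice (colour) for the members (bold) and the 5 genes most like each (rows, each gene shown once) in every mouse (columns, AD left of the line). Krt6b, Krt16, Prss22, Vasn, Teddm3 and the Sprr, Lce and Krtdap rows share the dark AD mouse 1 column, where Krt17 deviates by 0.16. HF + AD mice 2 and 4 are below the mean for all 4 members.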

How the data were processed

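For 5 AD and 7 HF + AD mice, each grouped by its label, a single 3′ mRNA library (QuantSeq) was made from skin RNA. The files the authors deposited hold unnormalized read counts for gene symbols, with 23282 entries and 35 symbols listed more than once, each kept on its own. The submitters' processing notes name Bowtie2, bedtools and mm10 without versions. The annotation, the treatment of reads with several matches and of duplicates, and the use of strand are not given in the sources used here. The labels do not say whether mice shared cages or days, so p-values measure the spread between these mice. No molecular identifiers are described, so limits cover counting error only.

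HF + AD was compared with AD with edgeR 4.0.16 in R 4.3.3 (TMM, filterByExpr, quasi-likelihood fit with group as the only term, Benjamini-Hochberg over 14163 genes, threshold 0.05), and the procedure was tested on simulated data. Single genes used log2(CPM + 1) and two-sided exact permutation tests over the 792 splits of 12 mice into 5 and 7, whose smallest p is 0.00126. Ratios used counts plus a pseudocount of 1. Alternatives were DESeq2 1.42.0, limma 3.58.1 (prior count 2), other size factors and filters, other pseudocounts and references, a replicate block and leaving out each mouse. Tables and figures were made with Python 3.11.15, SciPy 1.17.1, pandas 2.3.3 and matplotlib 3.10.9, and transcripts of GENCODE M21 were aligned with Biopython 1.88. No pair of libraries of a group agreed within sampling noise (chi-square per degree of freedom at least 21.7).

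The members and all gene lists (inducing ligands and receptors, transcription factors, wounded or inflamed epidermis, cell cycle, other keratins, and markers of skin cell types) were chosen with earlier results of these data known. Genes named are the members, Krt5, Krt14, Krt1 and Krt10, up to 5 called genes in each direction from each list, and the 5 genes most like each member. Krt15, Krt75, S100a8 and Krt42 outside those places, genes called without AD mouse 1, and genes at 0 were named after their values were seen.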

Additional observations from a re-analysis of the deposited data

Results flagged for a closer look

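Of the 32 groups of values checked, 4 were flagged, where chance flags about 1 in 20 groups. All 4 were groups of AD values, the only ones that hold AD mouse 1. In each, AD mouse 1 lay farther from the other 4 AD mice than Dixon's 95% limit for 5 samples (0.710 of the group's range). Its log2(CPM + 1) of Krt6b was 11.39, with the others from 8.47 to 9.10, a gap of 0.786 of the range. Its log2(CPM + 1) of Krt16 was 9.90, with the others from 7.25 to 7.74, a gap of 0.816 of the range. Its log2 ratio of Krt16 to Krt14 was -0.42, with the others from -1.88 to -1.63, a gap of 0.830 of the range. Its log2 ratio of Krt17 to Krt16 was 0.75, with the others from 2.28 to 2.84, a gap of 0.728 of the range. These 4 values come from 1 library and are not independent of each other. The library had 11688979 counts, the most of the AD group, and 13258 entries with a read, inside the range of the AD group.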

How the results depend on the processing

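The direction of Krt6a and Krt17 held in every fit, with no call for either, and Krt5 was called in all of them. Krt6b turned above 0 with limma-trend (0.27) and sample quality weights (0.62), and it ran from -0.29 to 0.92 when each mouse was left out. Summed with Krt6a, which holds most of the pair's reads, it has no value of its own, and the pair was at 0.22. In the fits that left out each mouse Krt16 ran from -0.11 to 0.95, Krt6a from 0.13 to 0.58, Krt17 from 0.26 to 0.53, Krt14 from 0.81 to 1.31, Krt1 from -0.18 to 0.74 and Krt10 from -0.68 to 0.68. Krt10 was 0.46 with quality weights. The permutation difference of Krt16 ran from 0.19 to 0.85 (exact p = 0.0303 without AD mouse 1). Ratios to Krt14 ran from -0.85 to -0.65 for Krt6a, -0.99 to -0.44 for Krt6b (exact p = 0.0333 when AD mouse 5 was left out and 0.0433 when HF + AD mouse 5 was), -0.74 to -0.37 for Krt16 (exact p = 0.0563 without HF + AD mouse 1, 2, 3 or 4) and -0.73 to -0.54 for Krt17. With Krt5 as the reference the differences were -0.55 for Krt6a, -0.44 for Krt16 and -0.41 for Krt17, with the summed reference -0.48 for Krt16, and by rank sum Krt16 (-0.65) had an exact p of 0.106. The cause of these changes was not tested.

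The count of genes called was 1303, and it was 639 to 1461 when each mouse was left out (639, 686 and 794 when HF + AD mouse 2, 1 or 4 was left out, and 803 for AD mouse 2), 766 with quality weights and 1946 with DESeq2. Same-numbered mice of the groups did not pair (r of their deviations from -0.12 to 0.083, with 1 of 5 numbers highest for its own), and a fit with a replicate block called 192 genes and none of the members, with Krt6b at 0.21 and Krt1 at -0.23. With 5 and 7 mice, standard errors of the members were 0.21 to 0.46 on the log2 scale, and Krt17 at 0.43 (SE 0.21, edgeR adjusted p = 0.219) was not called. Depth did not limit the members, whose lowest level was 151 CPM.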

Other observations

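Other cell types of the skin gave these values beside the keratins. Of 16 skeletal muscle genes 4 were called lower in HF + AD and none higher, with a median log2 fold change of -0.72 beside 0.02 over all genes tested and summed levels of 2146 to 4879.6 CPM in AD and 1306 to 3292 CPM in HF + AD mice. The count of calls ran from 1 to 7 when each mouse was left out, with 1 call for AD mouse 1 or 2, or any of HF + AD mice 2, 4 and 7. There were 2 calls for AD mouse 5, or any of HF + AD mice 1, 3 and 5, and 7 calls for HF + AD mouse 6. Of 13 tested adipocyte genes 2 were called higher and none lower, with a median of -0.21, and sums of 541 to 1311 CPM and 449.6 to 1062 CPM overlapped between the groups. None of these was called when HF + AD mouse 2 was left out, and 1 was called when AD mouse 3 or 5, or any of HF + AD mice 1, 3, 4 and 7 was. Of 14 tested sebocyte genes 1 was called higher and 1 lower, with a median of -0.14. The shares called were 25% for muscle, 15.4% for adipocyte and 14.3% for sebocyte genes, beside 9.20% of all genes.

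Of 18 tested leukocyte genes none was called by edgeR, beside 9.20% of all genes. At an unadjusted edgeR p under 0.05, 4 were higher and 1 lower, where 25.1% of all genes passed. DESeq2 called 3 of the 18 and limma-trend 1, beside 1946 and 1558 of all 14163 genes. Of 12 fibroblast genes none was called by edgeR, DESeq2 or limma-trend. At an unadjusted edgeR p under 0.05, 2 of them were higher, where 12.3% of all genes were. With AD mouse 1 left out, 3 of 20 tested leukocyte and 3 of 12 fibroblast genes were called higher, beside 5.38% of all genes. Of leukocyte genes 1 was called when AD mouse 2, 3 or 4 was left out and 2 when AD mouse 5 was. Fits without AD mouse 2, 3, 4 or 5 called 803, 1011, 1102 and 1341 genes in all, in that order.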
